A study of Mus musculus with 20 samples.

Results

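The genes of the cytosolic ribosome's proteins are described here in mouse hippocampus, across genotype, lipopolysaccharide (LPS) treatment and library set. Members were taken by name: protein-coding genes called Rpl or Rps followed by a digit, together with Rplp0, Rplp1, Rplp2 and Rpsa, without S6 kinase genes and pseudogenes, and with at least 100 counts over the 20 libraries. Of 55536 genes in the count table, 86 coding genes fitted the name and 83 met the minimum, 49 with large-subunit (Rpl) and 34 with small-subunit (Rps) symbols. The testis-type and muscle-type copies Rpl10l, Rpl39l and Rpl3l fell short, with 0, 13 and 75 counts, and Rpl36al lay just inside with 170 counts. All 83 passed the expression filter, as did 16419 genes in all. A pair of members share the name but not the role: Rps19bp1 encodes a protein that binds Rps19, and Rpl7l1 is a relative of Rpl7 linked to ribosome assembly. True ribosomal protein genes such as Fau and Rack1 lie outside the name rule and are given beside the members.

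The mice were males of 12 weeks with the strain label C57BL/6J, either wild-type or knockout for Fkbp5, which encodes a co-chaperone of HSP90. LPS, a component of the bacterial outer membrane, was given once into the peritoneum at 3 mg/kg, controls of each genotype got saline, and the hippocampus was taken on day 7. Both genotypes under both treatments make 4 groups, with 5 libraries each. The sources used here give neither the design of the Fkbp5 allele nor the cells that lack it, and do not say that each replicate is a separate animal, so p-values measure the spread between these libraries. Library totals ran from 16652992 to 27230202 counts, with 1.21 to 2.33% of counts in the 83 genes. Fkbp5 stood at 25.1 to 36.0 CPM (counts scaled to an effective library total of 1000000) in knockout and at 56.7 to 73.4 CPM in wild-type libraries. Summed markers of hippocampal neurons were at 709 to 1107 CPM and none of the 8 was without a count.

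A ribosome joins a small subunit, which reads the mRNA, to a large subunit, which forms the peptide bond, and each holds 1 copy of most of its proteins. Ribosomal protein genes therefore tend to be transcribed together, and many of their mRNAs begin with a C and a run of pyrimidines, the 5′ terminal oligopyrimidine (TOP) motif, through which mTORC1 and LARP1 control their translation. In the hippocampus translation near synapses is tied to memory, and Rps6 phosphorylation is widely used as a mark of neuronal activity.

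Level per length, the mean CPM over 20 libraries divided by the mRNA length in kilobases, was close among most members. It lay between 100 and 750 for 72 of the 83, with a median of 312, and the medians of Rpl and Rps symbols were 286 and 340. The highest was Rplp1, a protein of the stalk that calls elongation factors to the ribosome, at 1289 CPM per kilobase. It was followed by Rpl41, which encodes a very short peptide, at 731, by Rps15 at 698, by Rpl9 at 600.3 and by Rpl13 at 580. In single libraries Rplp1 was at 344 to 540 CPM in replicates 1 and 2 and at 682 to 934 CPM in replicates 3 to 5. Its stalk partners Rplp0 and Rplp2 had 240 and 443 CPM per kilobase.

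**Figure D1:**
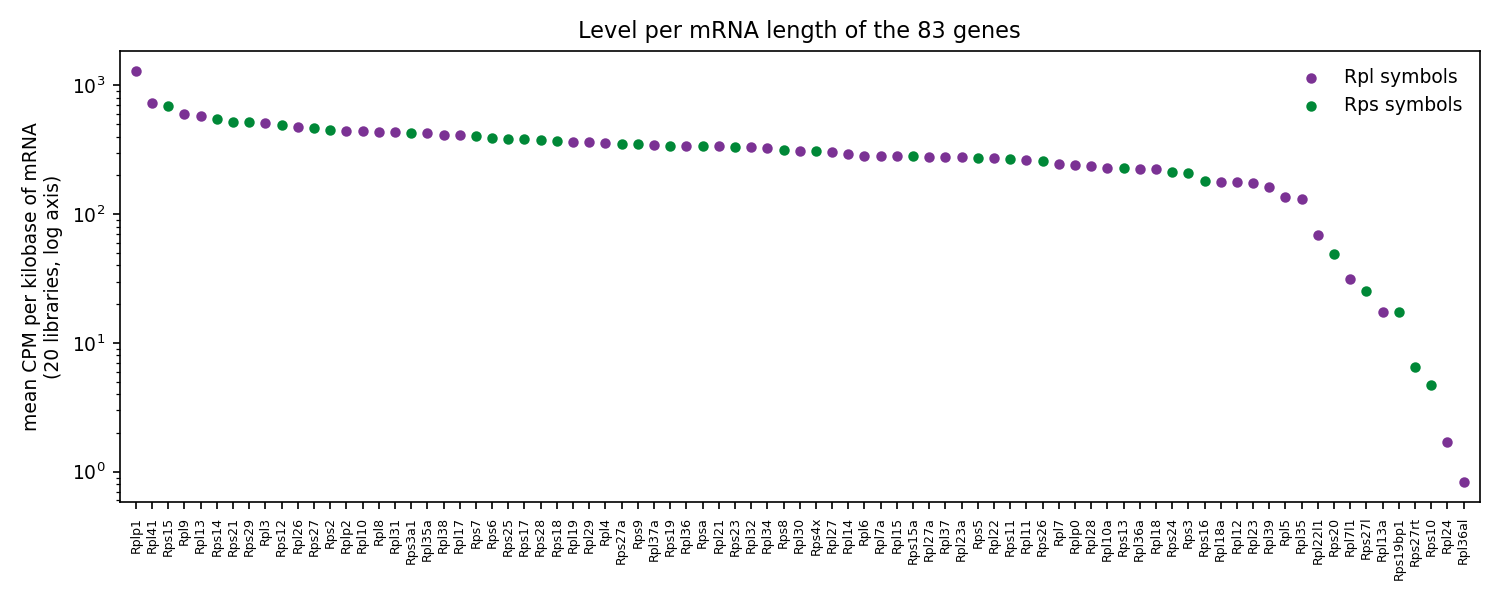
Mean CPM per kilobase of mRNA over the 20 libraries (vertical log axis) for each of the 83 genes, ordered by level, with Rpl symbols in purple and Rps symbols in green. The level declines slowly from Rplp1 at 1289 and then steeply over the last 10 genes to Rpl36al at 0.84.

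At the low end were 10 members under 100 CPM per kilobase. One of them, Rps20 at 49.2, had a mean of 182 CPM, and its value rests on an annotated mRNA of 3706 bases. The lowest were Rpl36al at 0.84, Rpl24 at 1.69, Rps10 at 4.74, Rps27rt at 6.53 and Rps19bp1 at 17.4, followed by Rpl13a at 17.5. Rpl24, Rps10 and Rpl13a encode core proteins of every ribosome. Their mRNAs share exons on the same strand with annotated readthrough or predicted genes over 71.5% (Rpl24, with Gm28037), 91.6% (Rps10, with RPS10-NUDT3), 59.3% (Rpl13a, with Gm45713) and 63.1% (Rpl36al, with Gm49383) of their length. Those 4 overlapping genes had 0 counts in every library, so the low counts of these 4 members may not show their transcript level, and how reads in shared exons were assigned is not given in the sources used here. Of the other 79 members only Rpl19 shared exons on its strand (10.7%). On the opposite strand 9 members shared exons with another gene, the largest share being 68.3% for Rpl35.

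Paralogs stood below their parents, per length. Rpl22l1, whose product can replace Rpl22, had 69.4 CPM per kilobase against 274 for Rpl22. Rps27l, a p53-responsive relative of Rps27, had 25.3 against 468, and Rpl7l1 had 31.4 against 247 for Rpl7. Rps27rt, a retrotransposed copy of Rps27 on chromosome 9, had 6.53. Rpl36al had 0.84 against 225 for Rpl36a, but its counts carry the shared-exon limit given above. Among members with further roles, Rpsa, also known as a laminin receptor, had 340, Rps6, the target of the S6 kinases, 389, and Rps19, a gene of Diamond-Blackfan anaemia, 341. Rpl5 and Rpl11, which carry 5S ribosomal RNA and bind Mdm2, had 137 and 262, Rpl10, which joins late in assembly, 441, and Rpl3, next to the catalytic centre, 509. The value of Rpl5 rests on an annotated mRNA of 2045 bases.

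Promoter windows of RefSeq (GRCm38.p6), from 250 bases before to 50 bases after the annotated start, were found for 63 of the 83 members. A C at the first transcribed base followed by at least 4 bases that are each C or T stood at the start of 14 of 63 (22.2%), against 3% of 27025 genes with a window. The letters CCGGAAG, the core bound by ETS factors such as GABPA, occurred on either strand of the window in 25 of 63 (39.7%), against 9.9% of all genes. These matches describe the letters in these windows only. A gene with several windows counted as a match when any of them had the letters. The next lines show 45 bases before and 15 after the start for members that lead the results below: Rpl38, Rps21 and Rps27 among the most different between library sets, Rps10 and Rps19bp1 at the other end, Rpl4 and Rpl7l1 with little difference, Rps27rt as the retrotransposed copy and Rps6 as the S6 kinase target. Capitals mark the C at the first transcribed base with its pyrimidine run, and windows without capitals have none there. Rps21 had 2 windows, and a window with the run is shown.
Rpl38, chr11:114668535-114668594 (+): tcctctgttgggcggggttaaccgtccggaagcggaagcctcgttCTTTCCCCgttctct
Rps21, chr2:180257334-180257393 (+): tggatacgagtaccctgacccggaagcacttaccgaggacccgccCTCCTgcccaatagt
Rps6, chr4:86857353-86857412 (-): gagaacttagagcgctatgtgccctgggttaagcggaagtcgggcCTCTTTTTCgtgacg
Rps27, chr3:90213634-90213693 (-): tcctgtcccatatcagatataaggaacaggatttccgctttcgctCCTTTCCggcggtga
Rps27rt, chr9:114982725-114982784 (-): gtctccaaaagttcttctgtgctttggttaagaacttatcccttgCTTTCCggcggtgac
Rps10, chr17:27635230-27635289 (-): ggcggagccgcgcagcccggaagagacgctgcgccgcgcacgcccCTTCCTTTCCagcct
Rpl4, chr9:64173342-64173401 (+): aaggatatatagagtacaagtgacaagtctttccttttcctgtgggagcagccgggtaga
Rpl7l1, chr17:46782642-46782701 (-): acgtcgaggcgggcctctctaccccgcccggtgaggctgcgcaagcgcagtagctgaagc
Rps19bp1, chr15:80264292-80264351 (-): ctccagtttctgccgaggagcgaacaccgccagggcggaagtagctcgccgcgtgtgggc

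The members differed most between library sets, the 8 libraries of replicates 1 and 2 and the 12 of replicates 3 to 5, which are balanced over the groups. The labels do not say what separates them, and because they were recognised in earlier results of these data their differences are given without a test. The 83 genes took 1.54% ± 0.22 (SD, n = 8; 1.21 to 1.83%) of counts in replicates 1 and 2 and 2.16% ± 0.12 (n = 12; 2.01 to 2.33%) in replicates 3 to 5, without overlap. The log2 difference, replicates 1 and 2 minus 3 to 5, had a median of -0.78 over the members and 0.03 over all 16419 genes. It was below 0 for 79 of 83 members, and 71 members were lower in each of the 8 libraries than in any of the 12, against 11.1% of all genes. With library totals in place of TMM, which moves every gene alike, the medians were -0.51 and 0.30. In bulk tissue fewer cells of a type and less of an RNA per cell cannot be told apart.

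**Figure D2:**
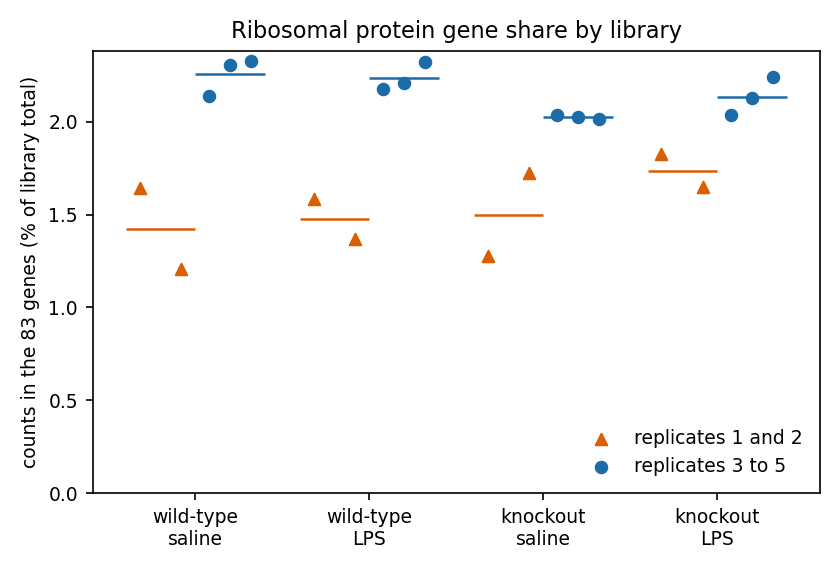
Share of each library's counts in the 83 genes (vertical axis, %), by group, with triangles for replicates 1 and 2, circles for replicates 3 to 5 and bars for the mean of each set in a group. The triangles lie between 1.21 and 1.83% and the circles between 2.01 and 2.33% in every group.

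Rps29 and Rpl38 led the difference. Rps29, a zinc-binding protein of the small subunit, was at 65.4, 69.6, 78.4, 96.6, 106, 111, 138 and 139.8 CPM in replicates 1 and 2, in rising order, and at 199.8 to 326 CPM (median 264) in replicates 3 to 5. No library of the first set reached the second, and the log2 difference was -1.44. Rpl38, known for its part in translating Hox mRNAs, followed at -1.27 (mean 77.5 against 186 CPM), then Rps28 at -1.21, Rps21 at -1.14 and Rpl37 at -1.08. Small-subunit members had a median of -0.83 and large-subunit members of -0.70. Counts in Rpl symbols were 1.504 to 1.59 times those in Rps symbols in replicates 1 and 2 and 1.40 to 1.45 times in replicates 3 to 5, also without overlap.

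At the other end 2 members, Rps10 and Rps19bp1, were higher in all 8 libraries than in any of the 12, against 10.9% of all genes, with log2 differences of 1.04 and 0.42. Rps10 had a mean of 3.42 CPM in the first set and 1.66 CPM in the second, and its counts carry the shared-exon limit given above. Rps27rt had 0.31, Rpl24 0.03 and Rpl7l1 -0.02, each with overlap between the sets. Rps19bp1 and Rpl7l1, which have the name but are not ribosomal proteins in the strict sense, were thus among the 5 members with the highest values. The other members whose sets overlapped were Rpl11, Rpl13a, Rpl18, Rpl22l1, Rpl36al, Rpl4 and Rps27l. Most core proteins with special roles followed the majority, but Rpl11, at -0.46 with overlap, did not. Rpl10, Rps6, Rplp0 and Rpsa were lower in all 8 libraries, with means of 226 against 437, 242 against 408, 213 against 402 and 393 against 644 CPM.

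The difference was present in every group, with medians of -0.96 (saline) and -0.93 (LPS) for wild-type and of -0.66 (saline) and -0.58 (LPS) for knockout mice. Other features moved with it. Mitochondrially encoded genes took 4.66 to 5.68% of counts in replicates 1 and 2 and 8.41 to 11.4% in replicates 3 to 5. With library totals that leave those genes out, the medians were -0.58 for the members and 0.23 for all genes. By annotated mRNA length the members' medians were -0.87 up to 500 bases (n = 20), -0.78 from 500 to 1000 (n = 45) and -0.72 from 1000 to 2000 (n = 16). The 2 members from 2000 to 4000 bases, Rpl5 and Rps20, had -0.86. Other coding genes had -0.32, -0.17, -0.09 and 0.00 in the same ranges. In each of these ranges the members' median was below that of the other genes, but lengths were not matched within a range. Spearman's rho of length and difference was 0.24 across the 83 members and 0.15 across 14248 other coding genes, which share the libraries and are not independent. Members with the TOP-type start had a median of -0.77 (n = 14) and those without it -0.78 (n = 49). That split rests on the exact annotated first base, and a pyrimidine run some bases away, as in the Rpl4 window, counts as absent. It therefore cannot show whether members with TOP mRNAs differed from the others. The part of mRNA length, RNA quality, library preparation or tissue in these values was not tested.

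**Figure D3:**
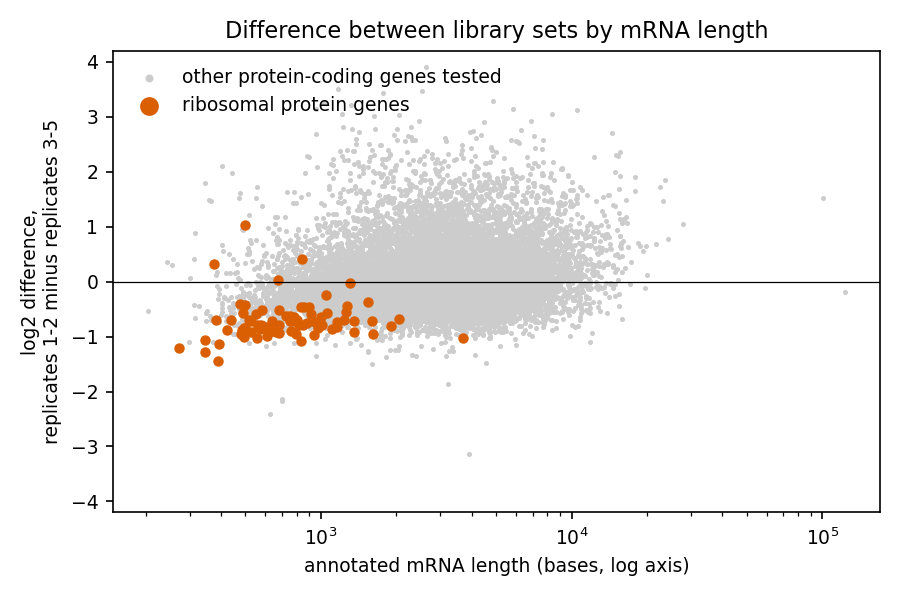
Annotated mRNA length in bases (horizontal log axis) against the log2 difference between replicates 1 and 2 and replicates 3 to 5 (vertical axis), with the 83 genes in orange and other tested coding genes in grey. Most orange points lie below 0, and their median lies below that of the grey points in each length range that holds members. Rps10, Rps19bp1, Rps27rt and Rpl24 (at 0.03) lie above 0.

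Other gene lists showed which genes of the translation apparatus shared that difference. Of 16 translation factors with TOP mRNAs, all were below 0 and 14 were lower without overlap, with a median of -0.59. The nuclear-encoded subunits of oxidative phosphorylation had a median of -0.54, with 74 of 77 below 0. Mitochondrial ribosomal proteins had -0.22 (61 of 77 below 0), the ribosomal proteins outside the name rule -0.71 (3 of 3), 40 ribosome biogenesis genes 0.03 and 20 genes of mTORC1 and S6 kinase control -0.04. Markers of astrocytes had -0.66 (5 of 5 below 0), microglia -0.52 (6 of 6), blood -2.14 (4 of 5), choroid plexus -0.69 (5 of 5), meninges -0.37 (7 of 8), hippocampal neurons -0.35 (6 of 8) and oligodendrocytes -0.10 (3 of 5). Endothelial and thalamus markers had 0.22 (1 of 4 below 0) and 0.12 (4 of 10), and none of those lists was without counts in replicates 1 and 2.

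No member differed between LPS and saline on day 7 beyond the spread between libraries. In wild-type mice the 83 genes took 1.92% ± 0.49 (SD, n = 5) of counts after saline and 1.93% ± 0.43 after LPS. In knockout mice the shares were 1.82% ± 0.33 and 1.98% ± 0.24. No member passed the test in either genotype, nor in the interaction (edgeR's quasi-likelihood test over 16419 genes, with 0.05 as the threshold for the Benjamini-Hochberg adjusted p), and none had an unadjusted p under 0.05. The background was 0%, 0.00609% and 0% of genes called and 2.07%, 1.75% and 1.11% at the unadjusted level. Members' median log2 fold changes were -0.02 in wild-type (23 of 83 above 0), 0.10 in knockout (80 of 83) and 0.13 for the interaction (81 of 83), against medians of -0.02, 0.01 and 0.02 over all genes. The median standard error of a member was 0.27 in each genotype. With the library set as a term in the fit it was 0.10, with 0 members at an unadjusted p under 0.05 in wild-type and 6 in knockout, against 4.28% and 4.67% of genes. Over both genotypes 0 members were called (background 0.0426%) and 0 had an unadjusted p under 0.05 (2.71% of genes), with a median of 0.04 and a median standard error of 0.19.

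The members with the smallest p after LPS were low-count genes. Rps27rt, the Rps27 retrogene, was at 2.0, 2.6, 2.1, 1.1 and 1.4 CPM in knockout saline replicates 1 to 5 and at 3.1, 5.2, 2.9, 1.0 and 2.6 CPM in knockout LPS. The groups overlapped, and the log2 fold change was 0.68 ± 0.33 (SE; edgeR adjusted p = 1.00). Rpl36al had 0.71 ± 0.47 in knockout, and among negative values Rpl22l1 had -0.11, Rpl14 -0.01 and Rpl4 -0.00. Within replicates 1 and 2 no member was called after LPS in wild-type (background 0%) or knockout (0.00564%), and 0 and 3 had an unadjusted p under 0.05 against 1.87% and 1.51% of genes. Within replicates 3 to 5 again none was called (0% and 0.0129%), with 0 and 13 at the unadjusted level against 5.48% and 4.73% of genes. In wild-type the values over all libraries were 0.05 for Rpl23a and 0.03 for Rps26, and -0.33 for Rpl24, -0.33 for Rpl36al and -0.12 for Rpl29. The value of Rpl29 was 0.08 without wild-type LPS replicate 2, where it stood at 76.6 CPM against 177 to 259 CPM in the other 4 libraries, and that of Rpl36al was 0.00 without wild-type saline replicate 4. For the interaction Rps27rt had 0.79 ± 0.47, Rpl36al 1.04 ± 0.66 and Rpl24 0.39 ± 0.38, with -0.03 for Rpl22l1 and -0.00 for Rpl4. Over both genotypes Rps27rt had 0.28, Rpl10a 0.10, Rpl24 -0.14, Rpl22l1 -0.10 and Rps10 -0.06.

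The lists around the members were as quiet after LPS. In the fit over both genotypes 0 of 16 translation factors, 0 of 40 ribosome biogenesis genes, 0 of 20 mTORC1 and S6 kinase genes and 0 of 77 mitochondrial ribosomal protein genes were called, with medians of 0.00, -0.04, 0.01 and -0.01. Summed markers of the thalamus, which borders the hippocampus, were at 247 to 430 CPM (median 358) after LPS and 280 to 359 CPM (median 289) after saline in wild-type, and at 273 to 398 CPM (median 335) and 299 to 372 CPM (median 337) in knockout. Without the 3 LPS libraries with the highest thalamus score, chosen after the data were seen, the count of members called was also 0 in each comparison.

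Knockout against wild-type asked what the loss of Fkbp5 does with and without LPS. In all 20 libraries no member was called after saline (background 0.171% of genes), after LPS (0.146%) or over both treatments (0.439%), and again none had an unadjusted p under 0.05, against 2.67%, 3.27% and 4.79% of genes. After saline 82 of 83 members were below 0 with a median of -0.10, after LPS 55 were above 0 with a median of 0.03, and over both 63 were below 0 with a median of -0.03. Medians over all genes were -0.02, 0.00 and -0.01. With the library set as a term in the fit 0 members were called in any of the 7 comparisons: LPS in wild-type, in knockout and over both genotypes (background 0.0183%, 0.0426% and 0.146%), knockout after saline, after LPS and over both treatments (0.286%, 0.329% and 0.926%), and the interaction (0%). limma-voom with quality weights called 1 member over both treatments, Rpl30 (log2 fold change -0.44, adjusted p = 0.0460; background 3.26%). After saline the lowest p values were those of Rpl36al at -0.88 ± 0.47 (SE), Rps27rt at -0.49 ± 0.34 and Rpl13a at -0.17 ± 0.13, with Rpl23a, the single positive member, at 0.04. After LPS they were Rpl30 at -0.30 ± 0.29, Rpl22l1 at -0.14 and Rplp2 at -0.12, and on the positive side Rpl7l1 at 0.07, Rps27rt at 0.30 and Rpl29 at 0.15. These values were -0.06 for Rpl29 without wild-type LPS replicate 2, -0.01 for Rps27rt without knockout LPS replicate 2 and 0.03 for Rplp2 without wild-type LPS replicate 5. Over both treatments they were Rpl30 at -0.32 ± 0.21, Rpl13a at -0.10 and Rpl36al at -0.36, and Rpl7l1 and Rpl29 at 0.03 and 0.05, the latter at -0.05 without wild-type LPS replicate 2.

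Within the library sets the members stood on opposite sides of 0. In replicates 1 and 2 alone 81 of 82 tested members were above 0 in knockout over both treatments, with a median of 0.22, and 0 were called (background 0.0564%; 4 members and 6.47% of genes at unadjusted p under 0.05). In replicates 3 to 5 alone all 83 were below 0, with a median of -0.14, and 25 members fell (background 8.1% of genes called in either direction and 3.38% lower; edgeR adjusted p under 0.05). At an unadjusted p under 0.05 there were 46 members, against 23.3% of genes. The difference between the sets, tested as an interaction term added after the data were seen, called 0 members (background 0.122%). At an unadjusted p under 0.05 it held 58 of 83 members against 15.7% of genes, with a median of -0.31 and all 83 below 0. Rpl11 had the smallest p, at -0.47 ± 0.13 (adjusted p = 0.110). Members moved together, with 0 to 80 above their set mean in a library of the first set and 2 to 82 in the second. Counts of members above or below 0 are thus not counts of independent observations. Shares of counts in the 83 genes overlapped between knockout and wild-type, at 1.28 to 1.83% and 1.21 to 1.64% in replicates 1 and 2. In replicates 3 to 5 they ran from 2.01 to 2.24% and from 2.14 to 2.33%.

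**Figure D4:**
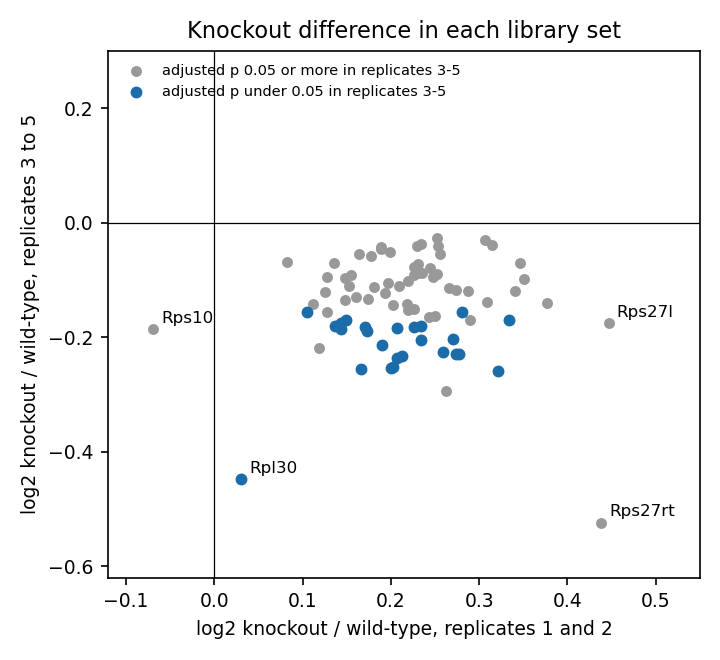
Log2 ratio of knockout to wild-type over both treatments in replicates 1 and 2 (horizontal axis) against replicates 3 to 5 (vertical axis), 1 point a gene for the 82 genes tested in both, with the genes past the threshold in replicates 3 to 5 in blue. Nearly all points lie in the lower right part, and Rpl30 lies at 0.03 and -0.45.

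The 25 members that fell in replicates 3 to 5 had log2 fold changes of -0.45 to -0.16, 14 of them with Rpl and 11 with Rps symbols. After Rpl30 the smallest p values were those of Rps16 (-0.25 ± 0.05, SE), which reaches towards the decoding site, Rps19 (-0.25 ± 0.05), Rplp2 (-0.26 ± 0.05) and Rps28 (-0.23 ± 0.05), with edgeR adjusted p of 0.00247, 0.00401, 0.00427 and 0.00634. Rps9, Rpl31, Rplp1, Rpl8 and Rpl36 followed at -0.24, -0.23, -0.23, -0.19 and -0.20. Rps19, in replicates 3 to 5, was at 277, 305 and 303 CPM (saline) and 271, 265 and 302 CPM (LPS) in wild-type mice. In knockout mice it was at 257, 232 and 241 CPM (saline) and 223, 252 and 245 CPM (LPS). In these 12 libraries each knockout value of Rps19 was below each wild-type value, as was the case for 8 members (Rpl22, Rpl30, Rpl8, Rplp1, Rplp2, Rps16, Rps19 and Rps28) against 1.35% of all genes. Leaving out 1 library at a time moved the count of 25 to between 8 and 33. It was 8 to 13 without wild-type saline replicate 4 or 5, wild-type LPS replicate 5, knockout saline replicate 3 or 5, or knockout LPS replicate 3. The shares of all genes called in those fits are not given here, so whether all genes shifted alike cannot be read from these counts. With library totals alone the count was 19 (background 7.63%) and with DESeq2 32 (9.63%).

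By treatment, 4 members fell in knockout after saline in replicates 3 to 5 (background 3.22%, and 1.1% lower): Rpl30 at -0.43 ± 0.08 (SE), Rps9 at -0.29 ± 0.07, Rps19 at -0.28 ± 0.07 and Rpl31 at -0.28 ± 0.07. The count was 0 without wild-type saline replicate 5 or knockout saline replicate 5, 1 without wild-type saline replicate 4 or knockout saline replicate 3 or 4, and 7, 15 and 9 without knockout LPS replicates 3, 4 and 5. DESeq2 called 19 members (background 5.24%), limma-voom 33 (8.68%) and the fit with a replicate block 10 (3.95%). After LPS 2 members fell (background 0.76%, and 0.361% lower), Rpl30 at -0.47 ± 0.08 and Rps16 at -0.30 ± 0.07. That count was 1 without wild-type saline replicate 4, any wild-type LPS library, knockout saline replicate 3 or 5, or knockout LPS replicate 3 or 5, and 4 without knockout LPS replicate 4. It was 4 with DESeq2 (background 1.35%) and 1 with library totals alone (0.593%). For the fits of either treatment with 1 library left out, the shares of all genes called are not given here. The interaction of genotype and LPS within replicates 3 to 5 called 0 members and 0% of genes (4 members and 3.96% of genes at unadjusted p under 0.05).

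Other measures moved with the genotype in the same 12 libraries (background over both treatments 8.1% of genes called and 3.38% lower). Mitochondrially encoded genes took 8.41 to 9.71% of counts in knockout and 9.42 to 11.4% in wild-type, and 13 of 13 were below 0 with 3 called. Of 77 tested nuclear subunits of oxidative phosphorylation 30 fell, with a median of -0.14, led by Uqcr10, Cox5b and Ndufa1 at -0.34, -0.37 and -0.40. Summed microglia markers were at 368 to 432 and 379 to 454 CPM in wild-type saline and LPS and at 323 to 350 and 355 to 408 CPM in knockout, and 6 of 6 were below 0 with 2 called, Csf1r (-0.24) among them. None of the microglia markers was without counts. Among hippocampal neuron markers C1ql2 fell by 1.17 and Zbtb20 rose by 0.41, and their sum ran from 981 to 1107 CPM in wild-type and from 896 to 1058 CPM in knockout. The part of these differences in the members' values was not tested.

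Genes that regulate or accompany the ribosome were mixed in replicates 3 to 5, where 8.1% of all genes were called and 3.38% fell. Of the ribosomal proteins outside the name rule Fau fell (-0.17, edgeR adjusted p = 0.0170), while Rack1 had -0.12 without passing. Among 16 translation factors with TOP mRNAs 15 were below 0 and 2 fell, Eif3h at -0.21 and Eif3e at -0.21, subunits of initiation factor 3. Of 20 genes of mTORC1 and S6 kinase control 3 were called: Mtor, the kinase itself, rose by 0.32 (adjusted p = 0.00222), and 2 inhibitors of the pathway fell, Sesn1 at -0.26 and Ddit4 at -0.27. Of 40 ribosome biogenesis genes 4 were called: Nolc1 and Utp20 rose by 0.34 and 0.27 and Fbl and Eif6 fell by 0.21 and 0.18. Of 77 mitochondrial ribosomal protein genes 4 fell, Mrpl57 at -0.26 and Mrpl51 at -0.27 among them, a share near that of all genes. In the 20 libraries together 0 genes of these lists were called, and Mtor had 0.23 ± 0.09 (SE; adjusted p = 0.712).

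Rpl30 had the smallest p of the members for knockout against wild-type in replicates 3 to 5. It encodes a large-subunit protein that is also known to bind the mRNAs of selenoproteins, and lies at chr15:34440505-34443640 on the minus strand (mm10, ENSMUSG00000058600). In wild-type replicates 1 to 5 it was at 136, 101, 229.8, 252 and 273 CPM after saline and at 122, 114, 234, 241 and 271 CPM after LPS. The knockout values were 91.0, 131, 197, 186 and 177 CPM after saline and 126, 127, 174, 196 and 173 CPM after LPS. In replicates 3 to 5 all 6 knockout libraries (173 to 197 CPM) were below all 6 wild-type libraries (229.8 to 273 CPM), and in replicates 1 and 2 the genotypes overlapped (91.0 to 131 and 101 to 136 CPM). Over both treatments the log2 fold change was -0.45 ± 0.05 (SE) in replicates 3 to 5 (edgeR adjusted p = 4.24e-05), 0.03 ± 0.15 in replicates 1 and 2 (adjusted p = 0.967) and -0.32 ± 0.21 in all libraries (adjusted p = 1.00). The call in replicates 3 to 5 held in 12 of 12 fits that each left out 1 library (adjusted p up to 3.59e-04). The difference between the sets was -0.45 ± 0.14 (adjusted p = 0.147).

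Because the members moved together with the library set, Rpl30 was also set against the median member of the same library, a measure added after the data were seen. On this scale its log2 CPM lay 0.07 to 0.24 below the median member in the 10 wild-type libraries (-0.24 to -0.07, median -0.14) and further below it in the 10 knockout libraries (-0.64 to -0.28, median -0.41). The genotypes did not overlap in either set or treatment. Among the 83 members Rpl30 was the only one with such a separation, but it was picked by its p in these same libraries. Of 16419 genes 3 (0.0183%) were lower and 14 higher in knockout in this way. Between the library sets the members moved by a median of -0.78 and all genes by 0.03. Most genes thus do not follow the median member, and their share is no yardstick for a member. With the summed member counts as library totals, the knockout difference of Rpl30 over both treatments was -0.26 ± 0.08 (SE; edgeR adjusted p = 0.708), and no member was called (background 0.195%).

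A near-identical copy of Rpl30 differed in the opposite direction. Gm12191, a processed pseudogene at chr11:49678710-49679057 (mm10), aligned to the Rpl30 mRNA with 99.71% identity over 348 bases. Its level was 1.22 to 3.60 CPM (median 2.15) in wild-type and 2.61 to 7.98 CPM (median 6.30) in knockout libraries. Within each set every knockout library was above every wild-type library, and over both treatments the log2 fold change was 1.43 ± 0.21 (SE; edgeR adjusted p = 0.00119). Mean counts were 41.5 and 127 for Gm12191 and 3590 and 3242 for Rpl30 in wild-type and knockout. Near-identical copies were found for 75 of the members, 599 in all with 492 holding counts, and of 84 copies tested Gm12191 was the only one called in knockout (background 0.439%). Reads that fit both gene and copy cannot be told apart in gene counts, and the part of their assignment in the Rpl30 values was not tested. A gene on the opposite strand, D730044K07Rik, overlaps 34.7% of the Rpl30 mRNA and had 36 counts in all.

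**Figure D5:**
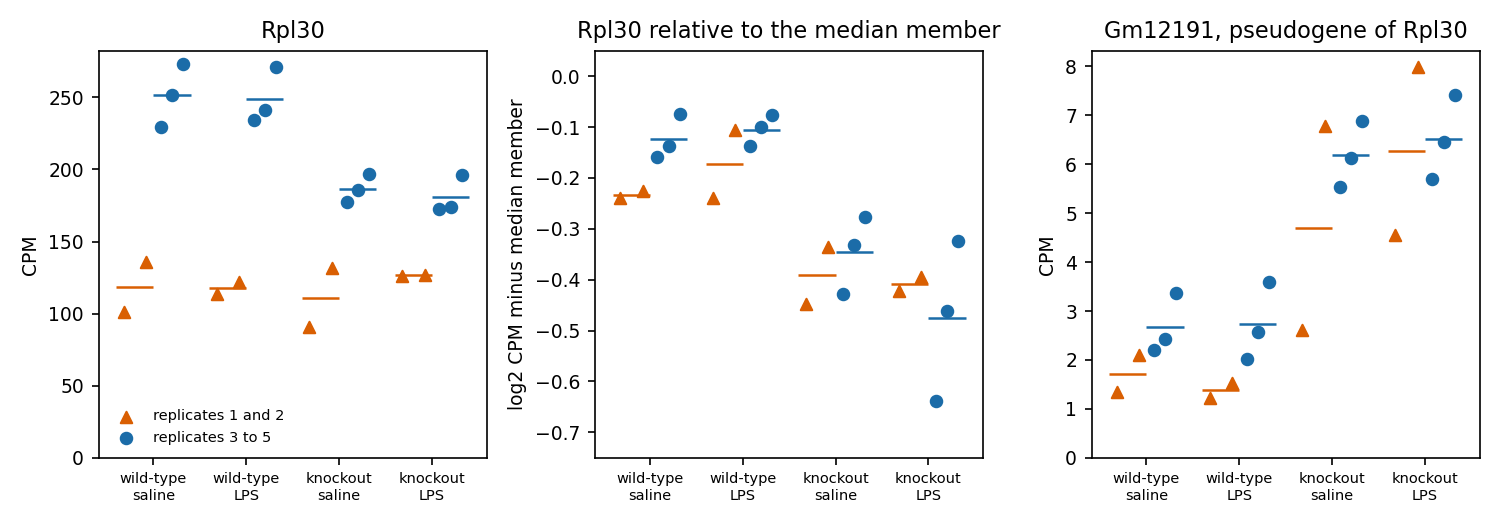
Rpl30 level in CPM (left), its log2 CPM minus that of the median member in the same library (centre) and the level of its pseudogene Gm12191 in CPM (right), by group, with triangles for replicates 1 and 2, circles for replicates 3 to 5 and bars for set means. Knockout circles lie below wild-type circles on the left, all knockout points lie below all wild-type points in the centre, and Gm12191 is higher in knockout within each set.

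Members near Fkbp5 on chromosome 17 are given separately because the genotypes differ at that locus. Within 20 Mb of Fkbp5 (28399094 to 28517527) lie Rpl10a, whose end at 28331033 is the nearest, Rps10, Rps2, Rps18, Rps28 and Rpl7l1. Rpl10a was at 138, 103, 190, 198 and 199.8 CPM in wild-type saline and at 108, 144, 183, 177 and 179.6 CPM in knockout saline, with overlap. In all libraries none of the 6 was called. In replicates 3 to 5 Rps2 and Rps28 were among the 25 members that fell, at -0.18 ± 0.05 and -0.23 ± 0.05 (SE; edgeR adjusted p = 0.0321 and 0.00634), and position near Fkbp5 and genotype cannot be told apart in this design.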

How the data were processed

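RNA from 20 hippocampus samples (RNeasy Plus Mini kit, 1 µg of total RNA, NEBNext Ultra libraries, per the labels' protocols) was sequenced by the authors, who deposited raw read counts per gene. Trimmomatic 0.38, FastQC, MultiQC, featureCounts 1.6.0 and mm10 are named in the submitters' processing notes. The aligner, annotation release and strandedness used, and the treatment of reads with several matches, are not given in the sources used here, so counts of members with near-identical copies or shared exons are uncertain. Intervals and p-values do not cover such assignment.

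Genes with enough counts for edgeR's expression filter (16419 of 55536) were scaled by TMM and tested with quasi-likelihood F tests in edgeR 4.0.16 under R 4.3.3, all 4 groups in 1 fit, with p-values adjusted over all genes tested. CPM uses TMM-scaled totals, log2 CPM a prior count of 2. Totals of 16652992 to 27230202 counts limit precision for members with few counts. Gene models and mRNA lengths (the shortest principal coding transcript) came from GENCODE M21, near-identical copies from blastn 2.17.0 (95% identity or more, aligned over 30% or more of the length), and promoter windows from RefSeq. Alternatives were other scalings and filters, DESeq2 1.42.0, limma-voom (limma 3.58.1), a library set term, a replicate block, each library set alone and each library left out. Omitting 3 libraries, refitting alternatives within replicates 3 to 5, the interaction with the set, and scaling on the members were added after the data were seen. The script was tested on simulated data. The members and lists were chosen with earlier results of these data known.

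Members named were, for each comparison, up to 10 called ones by p and the 3 with the smallest p on each side of 0. Also named were the 5 highest and 5 lowest by level per length and by set difference, a fixed set with special roles, paralogs with their parents, members within 20 Mb of Fkbp5, and up to 4 genes of each other list. A few genes that this rule names are not reported here. Among 40 pairs of libraries within groups 0 held identical counts, and in each pair they differed by more than sampling noise (chi-square per gene 3.86 to 134). Deviations of same-numbered libraries from their group means correlated at 0.26 to 0.85 (30 pairs, median 0.46). Those of other numbers in the same set had a median of 0.45 (48 pairs), and those across sets of -0.49 (72 pairs). These medians follow the library set and show little beyond it for the number. The labels give no pairing by number, and a fit with the number as a block was run beside each result.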

Additional observations from a re-analysis of the deposited data

Results flagged for a closer look

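A library far from the other 4 of its group, by the gap to its nearest neighbour relative to the range, was found in 2 of 112 tested combinations of value and group (1.8%). The values were levels of a chosen part of the members, library-wide measures of all members, and Rpl30 relative to the median member. The remaining members were not screened in this way. Chance gives about 5% where a group is 1 population, but each group here holds libraries of both sets, which widens its range, so that rate is no yardstick for this share. Rps10 was at 5.44 CPM in wild-type saline replicate 1, against 1.598 to 2.68 CPM in the other 4 libraries, and it is also a member that was higher in replicates 1 and 2. Rpl7l1 was at 38.5 CPM in knockout LPS replicate 3, against 42.8 to 44.0 CPM.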

How the results depend on the processing

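In the 20 libraries together, 0 members were called in all 7 comparisons by edgeR in each of 20 fits that left out 1 library, and 0 had an unadjusted p under 0.05 with all libraries. Replicates 3 to 5 alone called 4 members after saline, 2 after LPS and 25 over both treatments for knockout against wild-type, and limma-voom with quality weights called 1 over both treatments. DESeq2 called 0 in each comparison. At an unadjusted p under 0.05 DESeq2 had 1 member for LPS in knockout and 0 elsewhere, and limma-voom had 0 and 1 for LPS in wild-type and knockout, 8, 1 and 8 for knockout after saline, after LPS and over both treatments, 1 for the interaction and 0 for LPS over both genotypes. The share of all genes at that unadjusted level was not taken for DESeq2 or limma-voom, so these unadjusted counts have no background to be set against. The cause of the differences between these fits was not tested.

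Within replicates 3 to 5 the count after saline was 19 with DESeq2 and 33 with limma-voom, and 0 to 15 with 1 library left out. After LPS it was 1 with library totals alone, 4 with DESeq2 and 1 to 4 with 1 library left out, and over both treatments it was 19 to 32 across settings and 8 to 33 with 1 library left out. Members' medians there stayed below 0 in each of those fits. The shares of all genes called with 1 library left out are not given here, so these ranges are not particular to the members. The set difference was -0.51 with library totals alone and -0.58 with totals without mitochondrially encoded genes, where the median of all genes also moved, to 0.30 and 0.23.

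In the replicate block fits 0 members were called in the 7 comparisons over all libraries. Within replicates 3 to 5 the block gave 10 members after saline in place of 4 (background 3.95%). Over both treatments it gave 27 in place of 25, with 1358 of all genes called in place of 1257. The block moved no other count of members called by more than 1.5 times. Of the 20 libraries 11 correlated best with one of their own number.

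With 1 library left out of all 20, the pooled medians changed sign in 5 of 20 fits for LPS in wild-type (-0.17 to 0.11), for knockout after LPS (-0.10 to 0.15) and for knockout over both treatments (-0.11 to 0.02), and in 1 to 3 of 20 for the others. Of 40 values of single members named in the pooled comparisons, none of them past the threshold, 16 changed sign in at least 1 such fit.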
